A study of Homo sapiens with 6 samples.

Results

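The 39 genes described here encode the enzymes of cholesterol and fatty acid synthesis, the proteins that switch those enzymes on, and the proteins that carry cholesterol inside the cell or out of it. They were taken by gene symbol from a list, with no cut on their values, but the list was chosen with earlier results of these data known. They are 39 of the 63236 genes in the deposited table and 39 of the 17395 genes that carry an adjusted p-value there. All 39 were tested, so none was lost to a filter on low values. The members were placed in 6 groups by role, with 7 genes of the mevalonate steps, 11 of the sterol steps, 5 that control the SREBP transcription factors, 4 of sterol transport and storage, 5 of the LXR receptors and sterol efflux, and 7 of fatty acid synthesis.

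The data are RNA-seq of FUJIOKA, a human acute myeloid leukaemia cell line, in 3 libraries with a non-targeting shRNA (shNEG) and 3 with an shRNA against SPINK2 (shSPINK2). Both kinds of cell carry the Tet-pLKO-puro vector, which is switched on by doxycycline, and the control vector holds a scrambled shRNA. The labels name 2 SPINK2 shRNAs and the methods 1, and which of them is in a given shSPINK2 library is not stated. The time on doxycycline before RNA was taken is not given in the sources used here. Nothing in the labels says whether the libraries come from separate cultures, so the p-values measure the spread between these libraries, which may be technical.

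Cells make cholesterol from acetyl-CoA. The mevalonate steps join it into isoprenoid units up to farnesyl diphosphate, which also feeds the lipid anchors of proteins and the ubiquinone of mitochondria, and the sterol steps turn squalene into cholesterol. When sterol in the endoplasmic reticulum is low, SCAP carries the SREBP factors to the Golgi to be cut and activated, and the INSIG proteins hold SCAP back when sterol is high. Oxysterols, which accompany a high sterol supply, activate the LXR receptors, whose known targets include the transporters ABCA1 and ABCG1 and the ligase MYLIP. Dividing cells, leukaemic cells among them, need these lipids for new membranes.

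The table holds 1 mean per gene and no value per library. Whole reads per library were recovered from the deposited mean, fold change and standard error, and were found as exactly 1 solution for each of the 39 members and for 17314 of the 17395 tested genes. Totals of the recovered reads were 32024248 to 32728230 per library. Normalized reads below are these reads divided by the library's size factor. Libraries are listed in ascending order of size factor within a group, since the table gives them no replicate number. Fold changes, standard errors and adjusted p-values are those of the authors' table, made with DESeq2, and give shSPINK2 against shNEG. The targeted gene SPINK2 had 53.1, 63 and 55.8 normalized reads in shNEG cells and 6.09, 8.92 and 6.78 in shSPINK2 cells, a log2 fold change of -2.98 (SE 0.41, adjusted p = 2.41e-12). Of 8 markers of a myeloid leukaemia line, CD33, ANPEP, SPI1, CEBPA, MPO and RUNX1 had mean normalized counts of 1844 to 32858, whereas CD34 had 19.6 and KIT 0.666. Of the markers of other blood or stromal cells reported here, NCAM1, HBB, EPCAM and COL1A2 were listed at 0, CD3E, CD3D, MS4A1 and PPBP had means of at most 3.64, and COL1A1 had 149. COL1A1 had 172 to 186 normalized reads in shNEG and 113 to 124 in shSPINK2, and the part of such cells in the results was not tested.

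The SPINK2 shRNAs are shown because one base run of the second recurs in several members. The targets are printed 5′ to 3′, first with the bases that pair with guide positions 2 to 8 in capitals and then, for the second shRNA, with the run GCTCTCA in capitals. That run overlaps the bases that pair with guide positions 2 to 8 only in part, and was chosen with earlier results of these data known.
shRNA1: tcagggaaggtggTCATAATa
shRNA2: cgccaaactgctcTCAGTATa
shRNA2, inner run: cgccaaactGCTCTCAgtata
SPINK2 holds all 21 bases of each target, and the longest run that any member's canonical transcript shares with either target is 11 bases.

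Of the 39 members, 12 (30.8%) were lower in shSPINK2 cells at an adjusted p-value under 0.05, 17 (43.6%) were higher and 10 did not pass. Over all 17395 genes tested 24.4% were lower and 22.7% higher, 47.1% in all. All members had means of at least 561, and among the 8867 tested genes whose mean reached 500 the shares were 37.2% lower and 32% higher. The members' median log2 fold change was 0.02, and that of all genes tested was 0.01. The median absolute log2 fold change was 0.21 in the members and 0.28 in all genes tested. In the 12594 tested genes with a mean of at least 50 it was 0.25. Of the 39 members 34 lay within 0.5 of 0, as did 13003 of all 17395 genes tested and 10005 of those 12594. With the study's own threshold, which also asks for an absolute log2 fold change over 1, 1 member was lower (FDPS) and 1 was higher (TM7SF2), where 2.71% and 1.56% of all genes tested passed.

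**Figure D1:**
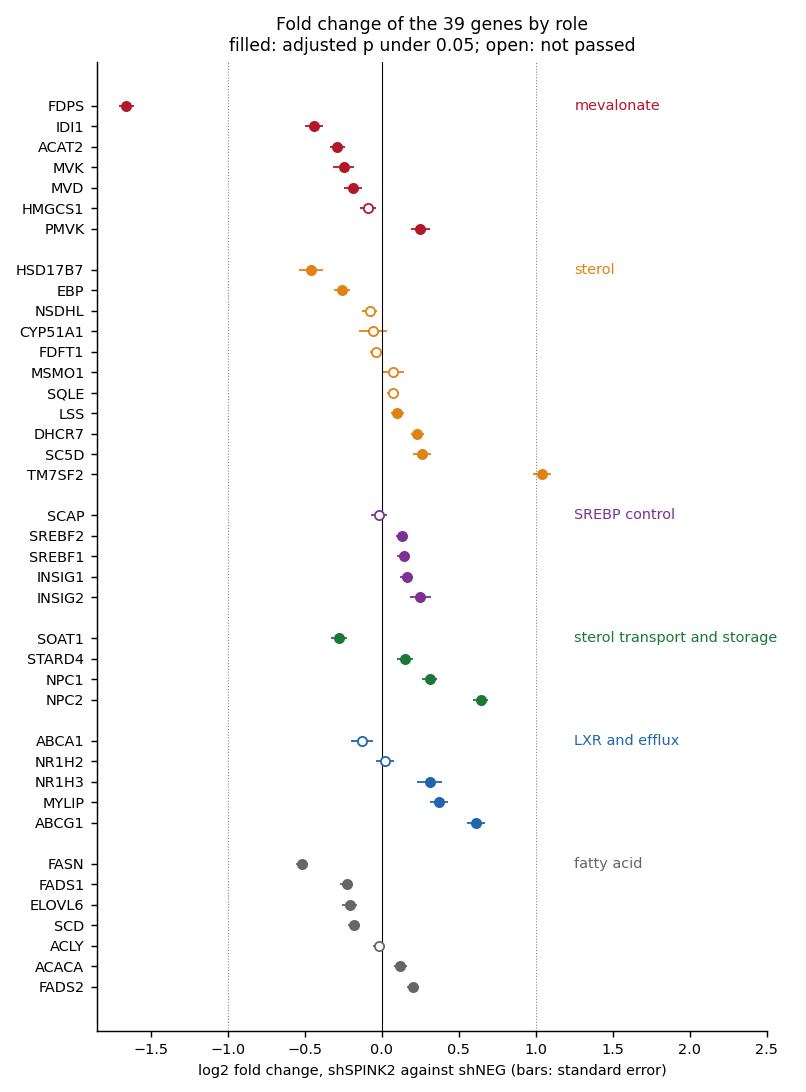
Log2 fold change of shSPINK2 against shNEG for each of the 39 genes (horizontal axis, with the standard error as a bar), grouped by role and ordered by value. Filled points have an adjusted p under 0.05 and dotted lines mark an absolute log2 fold change of 1. FDPS, at -1.66, and TM7SF2, at 1.04, lie outside the lines, and the SREBP control group lies between -0.02 and 0.25.

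The role groups differed in the direction of their calls. Of the mevalonate genes 5 of 7 were lower and 1 higher, with a median log2 fold change of -0.25. Of the sterol genes 2 of 11 were lower and 4 higher, with a median of 0.07. Of the fatty acid genes 4 of 7 were lower and 2 higher, with a median of -0.18. The SREBP control genes gave 4 higher of 5 and none lower (median 0.14), the LXR and efflux genes 3 higher of 5 and none lower (median 0.31), and the transport and storage genes 3 higher and 1 lower of 4 (median 0.23). These are counts over few genes, and the difference between the groups was not tested. Under a Wald test against a fold of 1.2 in place of 1, 2 mevalonate genes and 1 fatty acid gene passed as lower. As higher, 1 gene each passed of the sterol, the transport and storage, and the LXR and efflux groups. No other member passed there, where 14% of tested genes with a mean of at least 500 were lower and 10.1% higher. With Bonferroni adjustment no SREBP control gene passed. The recovered reads, which were solved from the same table and so are no independent check of it, show the spread behind the calls. The 3 shSPINK2 libraries lay entirely below the 3 shNEG libraries in 14 members and entirely above them in 18, and the libraries overlapped in 7. Over all 17314 genes with recovered reads the shares were 30.2% below and 29.2% above, and among those whose mean reached 500 they were 40.3% and 35.1%.

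**Figure D2:**
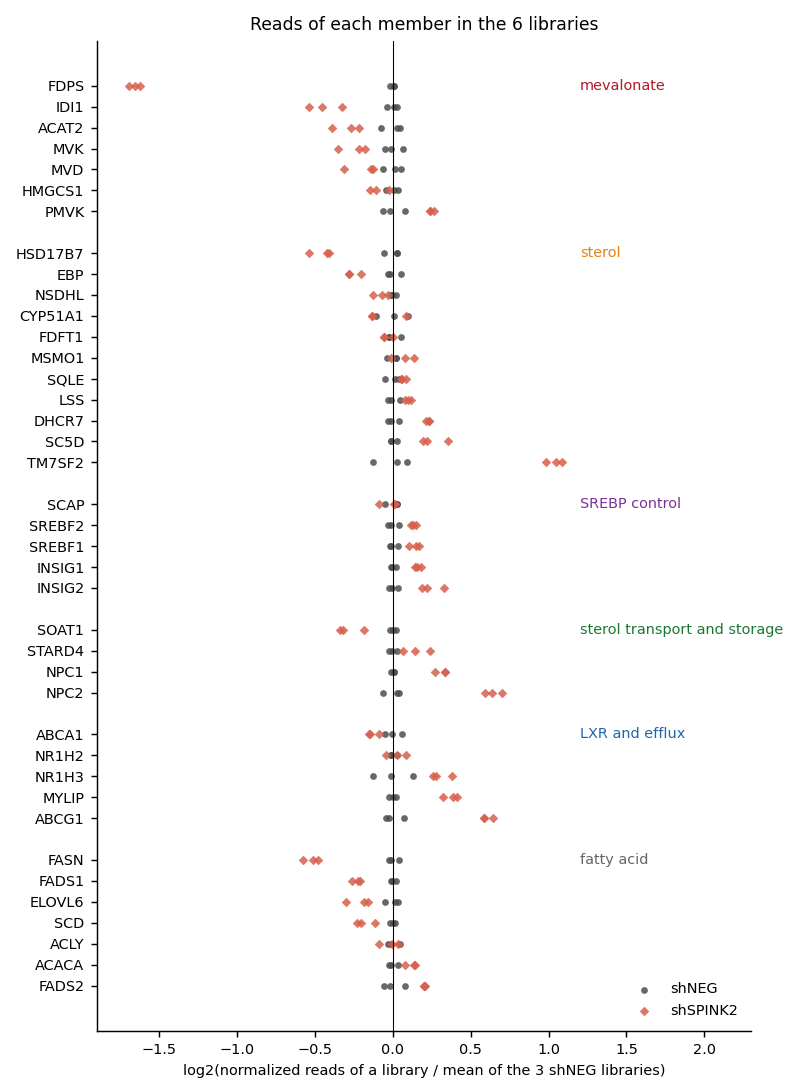
Reads of each gene in each of the 6 libraries, as the log2 of the normalized reads over the mean of the 3 shNEG libraries (horizontal axis). Grey circles are shNEG libraries and red diamonds shSPINK2 libraries. The 2 sets are apart in 32 of the 39 genes, and farthest apart in FDPS.

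Farnesyl diphosphate synthase, FDPS, makes the farnesyl diphosphate from which both sterols and the lipid anchors of proteins are built. It had 5814, 5924 and 5913 normalized reads in shNEG cells and 1905, 1815 and 1862 in shSPINK2 cells. The groups were far apart, with a spread between libraries of 60.9 (SD, n = 3) in shNEG and 45 in shSPINK2. Its log2 fold change was -1.66 (SE 0.05, adjusted p = 2.28e-292), a fall of 68.4%. Among the 8867 tested genes with a mean of at least 500, 17 had a lower log2 fold change. FDPS lies on chromosome 1 (hg38, chr1:155308748-155320666, plus strand), and the annotated exons of RUSC1-AS1 on the other strand overlap its exons by 693 bases. RUSC1-AS1 averaged 285 normalized reads with a log2 fold change of -0.39, and whether the counting used strand is not given in the sources used here. The 7 FDPS pseudogenes with reads had means of 0.165 to 2.31.

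Isopentenyl-diphosphate isomerase, IDI1, supplies the substrate of FDPS. It had 3626, 3788 and 3732 normalized reads in shNEG and 2706, 2965 and 2554 in shSPINK2, with no overlap, and fell by 0.44 on the log2 scale (SE 0.06, adjusted p = 1.78e-14). ACAT2, the cytosolic thiolase that makes acetoacetyl-CoA, had 4838, 5214 and 5283 reads in shNEG and 4396, 4250 and 3893 in shSPINK2. It fell by 0.29 (SE 0.05, adjusted p = 2.18e-07). Its exons share 454 bases with those of TCP1 on the other strand, which averaged 16521 normalized reads with a log2 fold change of -0.45.

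Mevalonate kinase, MVK, fell by 0.25 on the log2 scale (SE 0.07, adjusted p = 0.00164), from 1005 ± 40.6 normalized reads to 846 ± 53.1 (SD, n = 3). Its exons share 225 bases with MMAB on the other strand, which had a log2 fold change of 0.24. MVD, the decarboxylase that makes isopentenyl diphosphate, fell by 0.19 (SE 0.06, adjusted p = 0.00248). PMVK, the phosphomevalonate kinase that acts between MVK and MVD, went the other way. It had 1377, 1473 and 1334 reads in shNEG and 1676, 1646 and 1648 in shSPINK2, a rise of 0.25 (SE 0.06, adjusted p = 8.37e-05). HMGCS1, the synthase at the entry of the pathway, had overlapping libraries, with 5593, 5919 and 5814 reads in shNEG and 5356, 5674 and 5222 in shSPINK2, and a log2 fold change of -0.09 (SE 0.05) that did not pass (adjusted p = 0.0848). Of the steps after HMGCS1, PMVK alone was higher, and FDPS stood apart from the other genes. Without FDPS, the median log2 fold change of the mevalonate genes was -0.22.

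The sterol steps did not follow the mevalonate steps as a block. TM7SF2, a sterol reductase that acts just after the lanosterol demethylase, had 935, 1040 and 1088 normalized reads in shNEG and 2169, 2107 and 2022 in shSPINK2, without overlap. Its log2 fold change was 1.04 (SE 0.06, adjusted p = 3.63e-57), a 2.06-fold rise. Among tested genes with a mean of at least 500, 41 had a higher log2 fold change. TM7SF2 lies on chromosome 11 (hg38, chr11:65111845-65116384, plus strand), and shares 18 exon bases with VPS51 on the same strand, which averaged 3943 normalized reads with a log2 fold change of 0.13.

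HSD17B7, the ketosteroid reductase of the demethylation steps, had 748, 794 and 794 reads in shNEG and 586, 580 and 535 in shSPINK2, and fell by 0.46 on the log2 scale (SE 0.08, adjusted p = 2.99e-08). Its near copy HSD17B7P2 averaged 97.4 normalized reads with a log2 fold change of 0.16. Whether reads that match both were counted or left out is not given in the sources used here. EBP, the sterol isomerase, fell by 0.26 (SE 0.05, adjusted p = 2.05e-07). The enzymes that close the route were higher. DHCR7, the last reductase, had 3695, 3746 and 3880 reads in shNEG and 4366, 4431 and 4440 in shSPINK2, and rose by 0.23 (SE 0.04, adjusted p = 8.79e-07). SC5D, the lathosterol desaturase, rose by 0.26 (SE 0.06, adjusted p = 6.64e-05). LSS, the lanosterol synthase, rose by 0.10 with an adjusted p of 0.0449, and its 3 shSPINK2 libraries, at 5272 to 5413 reads, stood just above the shNEG libraries, at 4882 to 5151.

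Neither of the first enzymes on the squalene route passed. FDFT1, which joins the farnesyl units into squalene, had 10840 to 11437 reads in shNEG and 10615 to 11065 in shSPINK2, with a log2 fold change of -0.04 (SE 0.04). SQLE, the squalene monooxygenase, had 6328 to 6728 reads in shNEG and 6807 to 6958 in shSPINK2, all above shNEG, but its log2 fold change of 0.07 (SE 0.04) had an adjusted p of 0.188. MSMO1, CYP51A1 and NSDHL, which act on the methyl groups of lanosterol, had log2 fold changes of 0.07, -0.06 and -0.08 and did not pass. FDPS, one step before squalene, fell by 1.66 on the log2 scale, beside values of -0.04 to 0.10 for FDFT1, SQLE and LSS.

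Of the genes that set SREBP activity 4 of 5 rose, by 0.13 to 0.25 on the log2 scale. SREBF2, the factor that chiefly drives cholesterol synthesis, had 13225, 13407 and 13914 normalized reads in shNEG and 14974, 14782 and 14668 in shSPINK2, and rose by 0.13 (SE 0.04, adjusted p = 0.0011). SREBF1, the factor that chiefly drives fatty acid synthesis, rose by 0.14 (SE 0.04, adjusted p = 0.005). INSIG1, itself a well-known SREBP target, had 8182, 8359 and 8192 reads in shNEG and 9169, 9353 and 9082 in shSPINK2, a rise of 0.16 (SE 0.04, adjusted p = 8.02e-05). INSIG2 rose by 0.25 (SE 0.07, adjusted p = 0.00211), and SCAP, the escort protein, had a log2 fold change of -0.02 (SE 0.05, adjusted p = 0.748). The exons of SREBF1 share 556 bases with RAI1 and those of SREBF2 share 731 with SREBF2-AS1, on the other strand, and these genes had log2 fold changes of -0.54 and -0.45. The ratio of SREBF1 to SREBF2 within a library was 0.254 to 0.256 in shNEG and 0.25 to 0.26 in shSPINK2, and that of INSIG1 to INSIG2 was 10.7 to 11.3 and 9.93 to 10.7. Exact two-sided permutation tests of these within-library log2 ratios gave p = 0.6 and p = 0.2 (0.6 and 0.25 adjusted over 5 pairs).

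The promoters bear on the SREBP group because SREBP factors bind sterol regulatory elements. RefSeq promoters (GRCh38.p14, 250 bases before to 50 after the start) were at hand for 34 of the 39 members. ACAT2, FDFT1, SQLE, ABCG1 and FASN had none and were not searched. The 9-base form TCACNCCAC, searched on either strand, was in 1 of the 34, SREBF2, and in 1.39% of all genes with a promoter. That background holds genes that are not expressed, so the share in the 7062 tested genes with a promoter and a mean of at least 500, a level all members reach, is given too, and was 1.53%. Its 8-base core CACNCCAC was in 7 members (20.6%), in 7.05% of all genes and in 7.66% of the expressed genes. The words CCAAT and GGGCGG, which are read by NF-Y and Sp1, were in 24 (70.6%) and 33 (97.1%) of the members, against 39.7% and 48.3% of all genes and 43.6% and 78.3% of the expressed genes. The E-box CACGTG was in 5 (14.7%), against 8.77% and 13.5%. The core is in capitals in the windows below, which read along the gene's strand and may hold it in either orientation.
SREBF2, chr22:41832962-41832991, plus strand: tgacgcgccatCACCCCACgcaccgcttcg
INSIG1, chr7:155297659-155297688, plus strand: gcgggccggcgGTGGCGTGtgcgcacgtca
IDI1, chr10:1048983-1049012, minus strand: ggccgggcgatGTGGCGTGgactggcgctg
SCD, chr10:100347108-100347137, plus strand: gcagaggccggGTGGTGTGgtgtcggtgtc
These holders of the core changed in different directions, with log2 fold changes of 0.13 in SREBF2, 0.16 in INSIG1, -0.44 in IDI1 and -0.18 in SCD. The other 3 members with the core were SC5D (0.26) and ACACA (0.12), both higher, and ABCA1 (-0.13), which did not pass. The FDPS promoter held CCAAT and GGGCGG and no core. A match of letters is not a bound site, and the lack of one says only that these letters are not in this window.

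The mRNAs of the proteins that move sterol out of lysosomes were higher. NPC2, a soluble lysosomal sterol carrier, had 3938, 4199 and 4235 normalized reads in shNEG and 6416, 6702 and 6221 in shSPINK2, a rise of 0.64 on the log2 scale (SE 0.05, adjusted p = 8.2e-42). NPC1, the membrane protein that takes sterol from NPC2, had 1904, 1937 and 1933 reads in shNEG and 2421, 2431 and 2320 in shSPINK2, and rose by 0.31 (SE 0.05, adjusted p = 4.23e-09). NPC2 rose by more than NPC1, and the within-library ratio of NPC1 to NPC2 went from 0.456 to 0.483 in shNEG to 0.363 to 0.377 in shSPINK2 (exact permutation test, p = 0.1, the smallest that 3 against 3 allows, adjusted p = 0.167). Each shares exon bases with a gene on the other strand, NPC2 with ISCA2 (103 bases, log2 fold change -0.29) and NPC1 with RMC1 (619 bases, -0.39), both of which were lower. STARD4, a cytosolic sterol carrier, rose by 0.15 (SE 0.05, adjusted p = 0.0125). SOAT1, which esterifies cholesterol for storage, fell by 0.28 (SE 0.05, adjusted p = 6.47e-07), from 2793, 2870 and 2839 reads to 2244, 2492 and 2270.

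Among the LXR-type efflux genes the members moved unequally. ABCG1, which exports sterol to lipoprotein particles, had 1247, 1266 and 1350 normalized reads in shNEG and 1931, 2014 and 1933 in shSPINK2, a rise of 0.61 on the log2 scale (SE 0.06, adjusted p = 1.35e-24). ABCA1, which exports sterol to lipid-free apolipoprotein, had 870, 840 and 907 reads in shNEG and 784, 820 and 787 in shSPINK2. All 3 shSPINK2 values of ABCA1 were below the shNEG values, but its log2 fold change of -0.13 (SE 0.07) did not pass (adjusted p = 0.125). The within-library ratio of ABCA1 to ABCG1 was 0.664 to 0.697 in shNEG and 0.406 to 0.407 in shSPINK2, a difference of -0.74 in log2 ratio (exact permutation test, p = 0.1, adjusted p = 0.167 over 5 pairs).

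MYLIP, the ubiquitin ligase that marks lipoprotein receptors for breakdown, had 1432, 1386 and 1410 reads in shNEG and 1839, 1876 and 1763 in shSPINK2, and rose by 0.37 (SE 0.06, adjusted p = 1.97e-10). NR1H3, which encodes LXR alpha, rose by 0.31 (SE 0.08, adjusted p = 0.00058), from 639, 589 and 702 reads to 836, 780 and 769. NR1H2, which encodes LXR beta, had a log2 fold change of 0.02 (SE 0.06, adjusted p = 0.787), and its libraries overlapped. The ratio of NR1H3 to NR1H2 was 0.476 to 0.554 in shNEG and 0.605 to 0.643 in shSPINK2 (exact permutation test, p = 0.1, adjusted p = 0.167). The exons of NR1H3 share 189 bases with ACP2 on the other strand, which averaged 1055 normalized reads with a log2 fold change of 0.44.

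**Figure D3:**
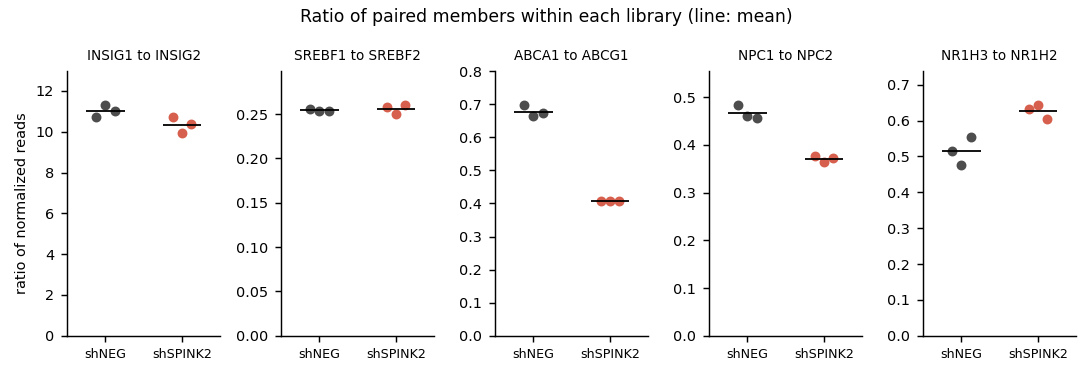
Ratio of normalized reads of 2 related genes within each library (vertical axis, from 0), for shNEG (grey) and shSPINK2 (red), with a line at the mean of 3 libraries. ABCA1 to ABCG1 falls from 0.664 or more to 0.407 or less, while SREBF1 to SREBF2 stays between 0.25 and 0.26.

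Fatty acid synthesis genes changed in different directions, and a difference between steps was not tested. FASN, the synthase that builds palmitate, had 14064, 14150 and 14674 normalized reads in shNEG and 10252, 9598 and 10032 in shSPINK2, a fall of 0.52 on the log2 scale (SE 0.04, adjusted p = 2.69e-37), or 30.3%. SCD, which puts the first double bond into stearate, was the most abundant member per kilobase of exon, at 7744 normalized reads per kilobase in shNEG. It had 40101, 40705 and 41040 reads in shNEG and 35192, 37519 and 34624 in shSPINK2, and fell by 0.18 (SE 0.04, adjusted p = 1.11e-05). ELOVL6, which elongates palmitate, fell by 0.21 (SE 0.05, adjusted p = 0.00018).

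The enzymes before FASN did not fall with it. ACLY, which makes cytosolic acetyl-CoA from citrate, had overlapping libraries and a log2 fold change of -0.02 (SE 0.04, adjusted p = 0.727). ACACA, which makes malonyl-CoA, rose by 0.12 (SE 0.04, adjusted p = 0.0108). The desaturases of polyunsaturated fatty acids went in opposite directions although they lie side by side on chromosome 11. FADS1 had 9791, 9732 and 9937 reads in shNEG and 8403, 8489 and 8179 in shSPINK2, and fell by 0.23 (SE 0.04, adjusted p = 3.29e-09). FADS2 had 18834, 18350 and 20141 reads in shNEG and 21945, 21905 and 22003 in shSPINK2, and rose by 0.20 (SE 0.04, adjusted p = 3.95e-06). Their exons share 490 bases on opposite strands, and FADS2 shares 49 bases with FEN1, which averaged 4710 normalized reads with a log2 fold change of -0.98. Whether reads in those bases were counted to a gene or left out is not given in the sources used here.

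**Figure D4:**
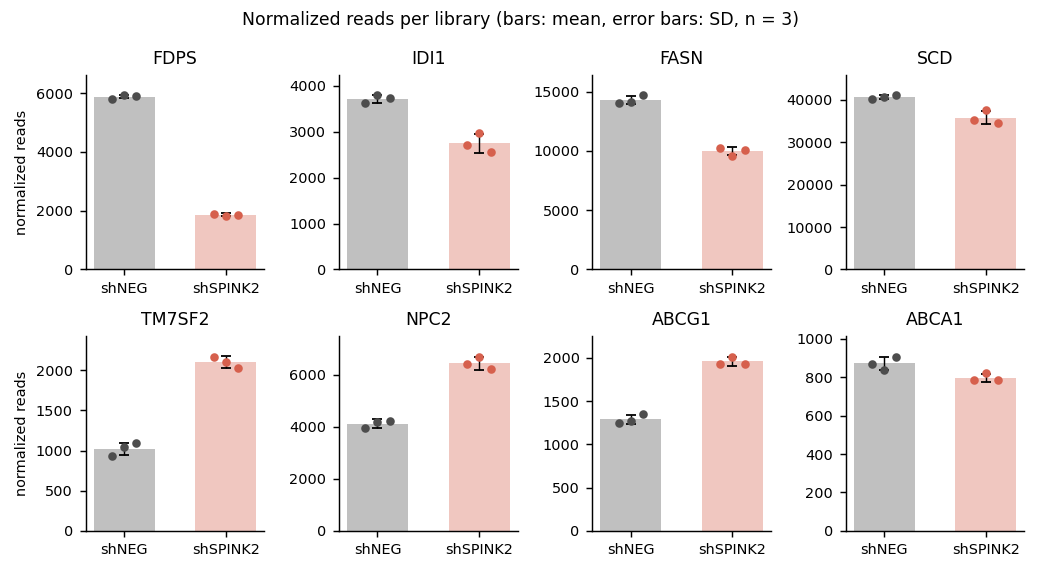
Normalized reads per library (vertical axis, from 0) for 8 members, with shNEG in grey and shSPINK2 in red. Bars are means, error bars SDs and points the 3 libraries. FDPS falls from 5884 to 1861, TM7SF2 rises from 1021 to 2099, and ABCA1, at 873 and 797, is the 1 gene shown whose change did not pass.

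The run GCTCTCA of the second shRNA's target was in the canonical transcript of 12 of the 39 members (30.8%), and in 22.3% of the 12821 tested genes with a coding transcript. In the 3′ UTR it was in 9 members (23.1%) against 10.3%. These 9 had a median log2 fold change of -0.18, with 5 lower, 2 higher and 2 not passing, and the other 30 had a median of 0.09, with 7 lower, 15 higher and 8 not passing. Among all 1322 tested genes with the run in the 3′ UTR, 48.6% were lower and 15.4% higher, with a median of -0.20. Among the 11499 without it there 28.6% were lower and 28.7% higher, with a median of 0.01. The run was chosen with earlier results of these data known, so these counts and medians are no independent test of it. Genes with and without it were not matched for the length of the 3′ UTR. Fold changes were not compared by the words that pair with guide positions 2 to 8. The methods give only the first shRNA, and which shRNA a library carries is not stated. FDPS, the member with the largest fall, holds the run in its coding sequence and again close to the end of its 3′ UTR.
FDPS, coding, run at chr1:155320526-155320532: gccacattatgGCTCTCAttgaacagtacg
FDPS, 3′ UTR, run at chr1:155320639-155320645: ggggagaggagGCTCTCAataaataatcgt
FASN, 3′ UTR, run at chr17:82078370-82078376: gtaaaaatgctGCTCTCAgcctcccacaat
MVK, 3′ UTR, run at chr12:109597438-109597444: actgggacacgGCTCTCAgtccatcagcac
STARD4, 3′ UTR, run at chr5:111499669-111499675: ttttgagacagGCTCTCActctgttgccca
LSS, 3′ UTR, run at chr21:46189582-46189588: tgcagtccaggGCTCTCAcccaggtgccgc
Of the 9 members with the run in the 3′ UTR, FDPS, FASN, MVK, ELOVL6 (-0.21) and SCD (-0.18) were lower. STARD4 and LSS were higher, LSS with an adjusted p of 0.0449 from the authors' Wald test, and ABCA1 and NR1H2 did not pass. Among the 7 lower members without the run there, the largest falls were those of IDI1 and HSD17B7, by 0.44 and 0.46 on the log2 scale. The words that pair with guide positions 2 to 8, TCATAAT and TCAGTAT, were in the 3′ UTR of 3 (7.69%) and 6 (15.4%) of the members, against 13.2% and 15% of the tested genes, and FDPS holds neither. Sequences and positions are from GENCODE release 44 (hg38). The part of these words in the members' changes was not tested.

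Other genes of lipid metabolism were read from 8 lists, none of them holding a member. The isoprenoid branch that uses FDPS products gave 4 lower and 4 higher of 12, with ICMT, the methyltransferase of prenylated proteins, lowest at -1.01 (SE 0.05, adjusted p = 2.48e-107) and DHDDS, which makes dolichol, highest at 0.42. Further SREBP-related genes gave 4 lower and 3 higher of 12. TMEM97, a sterol-responsive membrane protein, was lowest at -0.96 (SE 0.05, adjusted p = 1.03e-77), with 3360, 3597 and 3536 normalized reads in shNEG and 1798, 1840 and 1742 in shSPINK2, and RNF145 was highest at 0.37. Further LXR targets and partners gave 3 lower and 3 higher of the 8 tested. PLTP, a phospholipid transfer protein, was highest at 0.82 (SE 0.05, adjusted p = 4.19e-62) and LPCAT3, a phospholipid acyltransferase, lowest at -0.61 (SE 0.07, adjusted p = 1.15e-16). They are named as the extremes of that list, and a common direction of LXR targets was not tested.

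Fatty acid elongation and activation gave 6 lower and 4 higher of 14, from ELOVL4 at -0.46 to ACSL4 at 0.50. Fatty acid oxidation gave 5 lower and 6 higher of 14, from ETFB at -0.49 to ECHS1 at 0.58. Lipid droplet and ester turnover gave 2 lower and 4 higher of 9, from LIPE at -0.67 to DGAT2 at 0.29. Sterol transfer proteins gave 3 lower and 2 higher of 10, from STARD3 at -0.53 to SCP2 at 0.42. Lipoprotein receptors gave 1 lower and 2 higher of 7, from LRP8 at -0.36 to LRP1 at 1.38 (SE 0.09, adjusted p = 1.48e-52). Medians of the 8 lists lay between -0.09 and 0.04, near the 0.01 of all genes tested.

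**Figure D5:**
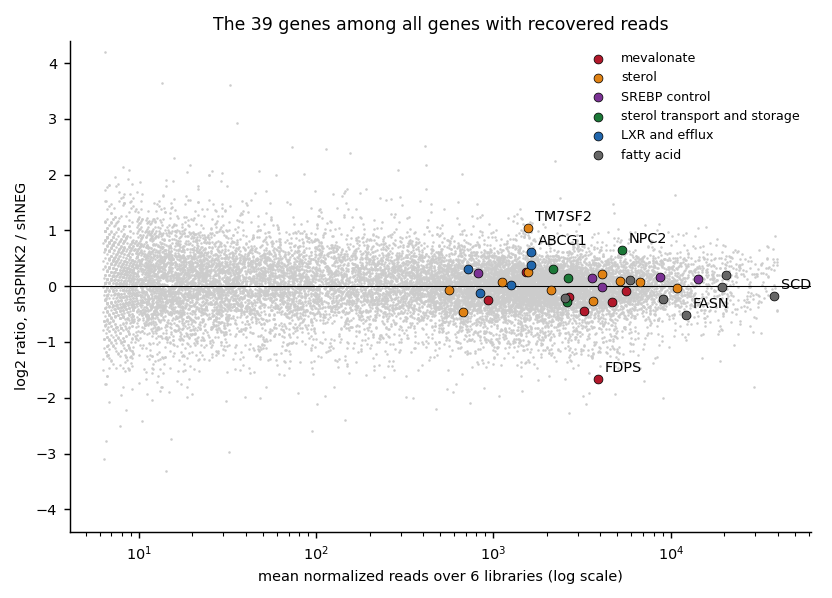
Log2 ratio of the group means of recovered reads (vertical axis) against the mean normalized reads over 6 libraries (horizontal axis, log scale), for all 17314 genes with recovered reads in grey and the 39 members coloured by role. The members lie at means from 561 to 38197, where fold changes of all genes are narrower than at low means, and FDPS and TM7SF2 are at the lower and upper edge of the members.

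A limma fit to the recovered reads, chosen after seeing the data, called 12 members lower and 16 higher, where it called 27.9% of all genes lower and 26.8% higher. The 28 were all among the 29 called in the authors' table, and the 1 lost was LSS (limma adjusted p = 0.0545). Leaving out each library in turn changed no sign among the 29. ACACA, SREBF1 and SREBF2 lost their limma call without shNEG library a, with adjusted p-values of 0.0887, 0.0519 and 0.0841. ACACA and SREBF2 also lost it without shNEG library b (0.096 and 0.0528), and ACACA without shSPINK2 library a (0.0549). Without shSPINK2 library b, LSS passed (0.0289), as did ABCA1 (0.0274) and HMGCS1 (0.0108), both of them lower. The other 25 calls held in every such fit.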

How the data were processed

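The authors aligned paired reads of 150 bases to GRCh38 (hg38) with STAR 2.7.11, used featureCounts for gene counts, and tested shSPINK2 against shNEG with DESeq2 1.40.0, versions as per the labels. The annotation release and strandedness of the counting are not given in the sources used here. The deposited table holds, per gene, a signal, which is the mean over 6 libraries of the counts that the authors divided by size factors. It also holds the log2 fold change and its standard error as estimated by the authors, the Wald statistic, a score given by the authors, and the p-value and Benjamini-Hochberg adjusted p-value deposited by the authors.

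Whole reads per library were recovered from the deposited mean, fold change and standard error by a lattice search. It gave exactly 1 solution for 17314 of 17318 genes with a mean of at most 40000, and none of 537 shifted means had a solution (1 was left undecided). The search and the tests were first tested on simulated data. One cell type marker is not reported here. Genes of the other lists were matched by symbol or gene ID. Genes named from the other lists were those with the largest and smallest log2 fold change among genes with an adjusted p-value under 0.05. The members, lists and sequence words were chosen with earlier results of these data known. Within-library ratios were compared by exact two-sided permutation tests, adjusted over 5 pairs. ACACA and LSS have a second row each with a mean of 0, which was not used. Software was R 4.3.3 with limma 3.58.1 (0.5 added before log2) and Python 3.11.15 with scipy 1.17.1, numpy 2.4.6 and pandas 2.3.3.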

Additional observations from a re-analysis of the deposited data

How the results depend on the processing

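The 12 lower and 17 higher calls moved as follows. Under a Wald test against a fold of 1.2 they became 3 and 3, where 9.12% and 7.23% of all genes tested passed, and Bonferroni adjustment left 9 and 7, where 13.7% and 11.4% passed. The 4 higher SREBP control genes became 0 under each of these. Under the former the lower calls went from 5 to 2 in the mevalonate group and from 4 to 1 in the fatty acid group. They went from 2 to 0 in the sterol group and from 1 to 0 in transport and storage. The higher calls went to 1 from 4 in the sterol group, and from 3 each in transport and storage and in LXR and efflux. In the mevalonate and fatty acid groups they went to 0 from 1 and 2. An adjusted p under 0.01 left 12 and 14, the Benjamini-Yekutieli adjustment 12 and 13, and centring on the median of all genes tested 12 and 16. Shares of all genes tested were not counted at these settings, nor at those that vary the study's threshold below. With the study's threshold, 1 member was higher, which became 3 at a fold of 1.5 and 0 under a Wald test against a log2 fold change of 1, since TM7SF2 lies close to it. The lower count stayed at 1 under these. Taking the mean in place of the median moved the mevalonate group to -0.38, the LXR and efflux group to 0.24 and the fatty acid group to -0.12. Leaving out 1 library moved the LXR and efflux median between 0.25 and 0.37, the highest without shNEG library c, which was added after seeing the data. Over 464 values of the 29 called members under the alternatives no sign changed, while ACLY, NR1H2 and SCAP, which were not called and had log2 fold changes of -0.02, 0.02 and -0.02, changed sign without 1 or more libraries. No paired analysis was possible because the deposited table has no column per library and the recovered libraries carry no replicate number. With 3 libraries against 3, within-library ratios cannot reach an exact p under 0.1, and the standard errors of the members, 0.04 to 0.09 on the log2 scale, set the size of change that could be detected.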
